A study of Mus musculus with 69 samples.

Results

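Hypothalamus from the older cohort of female mice was compared between homozygous Zeb1_200M animals (200M, 3 libraries) and wild-type animals (WT, 4 libraries), 7 of the 69 RNA-seq libraries of the series. The members were all raw count columns of the 2 genotypes for this tissue at 28 to 36 weeks, and every gene in them was considered. Zeb1_200 is a knock-in allele in which the pairing sites for miR-200a and miR-200b in the 3′ UTR of Zeb1 are mutated, so that 200M females carry 2 such copies, heterozygous Zeb1_200H (200H) females 1 and WT females none. All were C57BL/6J-background females, had been through the study's breeding trial and were killed in proestrus, the stage of the estrous cycle that precedes ovulation. The allele is present in every cell of the body. The mice of this cohort came from lines of 2 independent embryonic stem cell clones or from crosses between those lines, and the labels do not say which library came from which line. Most 200M females of this cohort bore no litters, so that genotype and breeding history cannot be told apart in this comparison.

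Each library was made from poly(A) RNA without strand information and read as single ends, and the study's methods call the replicates biological. The 7 libraries held 10627465 to 13917738 counts assigned to genes. The 4 older 200H hypothalami, 8 young hypothalami (WT and 200M, 8 to 12 weeks, virgin females) and 7 older pituitaries (WT and 200M) are used below only for side-by-side values. The tissue label was borne out by the hypothalamic transcription factor list, of which 29 of 30 genes passed the filter on low counts, and whose summed level was 411 to 514 CPM (counts per 1000000 counts) in the 7 libraries. Pairs of libraries within a group differed by more than sampling noise in every case, so none was counted as a copy of another.

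The hypothalamus governs reproduction through neurons that secrete gonadotropin-releasing hormone (GnRH), which drives luteinizing hormone release from the pituitary. ZEB1 is a transcription factor that represses epithelial genes and the genes for the miR-200 family, while the miR-200 microRNAs repress Zeb1, and the 2 sides therefore hold each other down in a double-negative loop. Steroid hormones and prolactin feed back on GnRH neurons mostly through other hypothalamic neurons that carry the receptors for estradiol, progesterone and prolactin.

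The mature miR-200 sequences are shown because the sites mutated in the Zeb1_200 allele are those that pair with them. They are given as RefSeq lists them on GRCm38.p6, 5′ to 3′, with the seed (bases 2 to 8) in capitals.
mmu-miR-200b-3p: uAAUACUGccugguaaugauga
mmu-miR-200c-3p: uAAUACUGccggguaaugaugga
mmu-miR-429-3p: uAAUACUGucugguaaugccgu
mmu-miR-200a-3p: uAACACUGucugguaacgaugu
mmu-miR-141-3p: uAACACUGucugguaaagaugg
The first 3 share 1 seed and the last 2 share the other, and the seeds differ at 1 base. A perfect 8-base site for the first seed reads CAGTATTA in a 3′ UTR and for the second CAGTGTTA. Mir200b, Mir200a and Mir429 lie together on chromosome 4 and Mir200c and Mir141 on chromosome 6.

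Zeb1 mRNA was at slightly lower levels in 200M than in WT hypothalamus, short of the threshold. Zeb1 (ENSMUSG00000024238, chromosome 18 of GRCm38, positions 5591860 to 5775467, plus strand) was at 122, 142, 142 and 137 CPM in WT, at 134, 125, 134 and 135 CPM in 200H and at 119, 109 and 112 CPM in 200M. Every 200M library lay below every WT library. The means were 135.7 ± 9.49 CPM (SD, n = 4) in WT and 113.5 ± 5.14 CPM (SD, n = 3) in 200M. The log2 fold change was −0.26 ± 0.09 (SE) and did not pass the threshold (adjusted p = 0.161, edgeR quasi-likelihood test with Benjamini-Hochberg adjustment over all genes tested). Zeb1 mRNA is long (10266 nt of exons), and its fold change was −0.12 (edgeR adjusted p = 0.599) when the trend of expression on transcript length, described below, was removed. The mRNA was counted from the mutated and the normal allele alike, so it does not check the genotype. The relative Zeb2 was at 53.7, 45.8, 52.2 and 45.0 CPM in WT and at 47.6, 30.3 and 49.5 CPM in 200M, with overlapping groups.

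Epcam, Esrp1 and the miR-200 host transcripts, on the other side of the loop, were close to absent from these libraries. Of the 14 genes listed for the loop, 5 passed the filter on low counts and none passed the test. This list holds Zeb1, Zeb2, the miR-200 host transcripts and known ZEB1 targets. Its member Cdh1, the E-cadherin gene, was at 0.812 to 8.45 CPM in WT and 1.69 to 10.9 CPM in 200M. Its log2 fold change was 0.68 (edgeR adjusted p = 0.569), and −0.0524 in older pituitary. Epcam, an epithelial adhesion gene, had 27, 6, 0 and 21 counts in the WT libraries and 10, 28 and 11 in 200M. Esrp1, an epithelial splicing regulator, had 0 to 4 counts in each of the 11 older hypothalami. The host transcripts of the miR-200 clusters, Gm13648 and Gm15884, had 0 to 2 and 1 to 7 counts. In older pituitary, by contrast, these 4 near-absent transcripts were lower in 200M than WT (log2 fold changes of −3.45 for Epcam, −3.96 for Esrp1, −2.91 for Gm13648 and −1.64 for Gm15884, edgeR adjusted p from 2.9e-09 to 0.00907), where 3153 of 14711 genes (21.4%) passed and 9.77% were lower. Among 40 epithelial genes 22 were tested in hypothalamus. Of these 4 were higher at an unadjusted p under 0.05, against 8.07% of all genes, and none lower. The adhesion gene F11r was at 6.32 to 9.19 CPM in WT and 9.82 to 12.1 CPM in 200M (log2 fold change 0.46 ± 0.16, edgeR adjusted p = 0.176). Of the mesenchymal list 19 genes were tested, 1 was higher and 1 lower at that level, the latter being Cdh2, which encodes N-cadherin (log2 fold change −0.29, edgeR adjusted p = 0.19, and −0.19 with the length trend removed).

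Across all genes 1 rose and none fell in 200M hypothalamus. Of 16067 genes tested, Gh was the only one with an edgeR adjusted p under 0.05, which is 0.00622% of genes. Below that threshold, 2904 genes (18.1%) had an unadjusted p under 0.05, 1296 (8.07%) higher and 1608 (10.0%) lower in 200M. The 3 libraries of 200M lay above all 4 of WT for 1269 genes (7.90%) and below them for 1263 (7.86%). Many of these sat just short of the threshold: Xkr4, Pgr and Gnrh1 had edgeR adjusted p of 0.059, 0.0917 and 0.098. DESeq2, a second count model, called 618 of the 12959 genes to which it gave an adjusted p (4.77%), 124 higher (0.957%) and 494 lower (3.81%). The number of calls depended on the settings and on single libraries. With no filter on low counts, edgeR called 1079 genes, 417 higher and 662 lower, and 556 of these were among the DESeq2 calls. In edgeR 265 genes passed without WT replicate 1 and 111 without 200M replicate 1. In DESeq2 107 passed without WT replicate 4, 291 without WT replicate 3, 407 without WT replicate 2, 173 without 200M replicate 3, 201 without 200M replicate 2 and 934 without 200M replicate 1.

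The heterozygous libraries did not show the same spread of low p-values. No gene of 15910 passed in 200H against WT by edgeR (0%), 445 (2.80%) had an unadjusted p under 0.05, and DESeq2 called 5 of 31528 (0.0159%). The 5 were Ptk2b, Ddn, Slc17a7, Ngfr and Kcnh3, all higher in 200H, and they are named only because they were few. In 200M against 200H, which shares the 200M libraries, 3144 of 16156 genes (19.5%) had an unadjusted p under 0.05, none passed by edgeR and 667 of 9390 (7.10%) passed by DESeq2.

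Long mRNAs leaned lower and short mRNAs higher in the 200M libraries. Genes with a known length were put into 5 bins of equal size by exonic length, the summed length of the exons of a gene. The median log2 fold change, 200M against WT, was 0.18 in the shortest bin (57 to 2324 nt), 0.0915, 0.0239 and −0.0414 in the next bins and −0.15 in the longest (7387 to 123179 nt). Of the 3203 shortest genes 19.1% were higher and 2.53% lower at an unadjusted p under 0.05. Of the 3207 longest 1.18% were higher and 30.2% lower. The 494 genes that DESeq2 called lower had a median exonic length of 10396 nt, and the 124 called higher one of 1824 nt, against 4260 nt for all genes tested. Of the 494, 373 were in the longest bin.

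**Figure D1:**
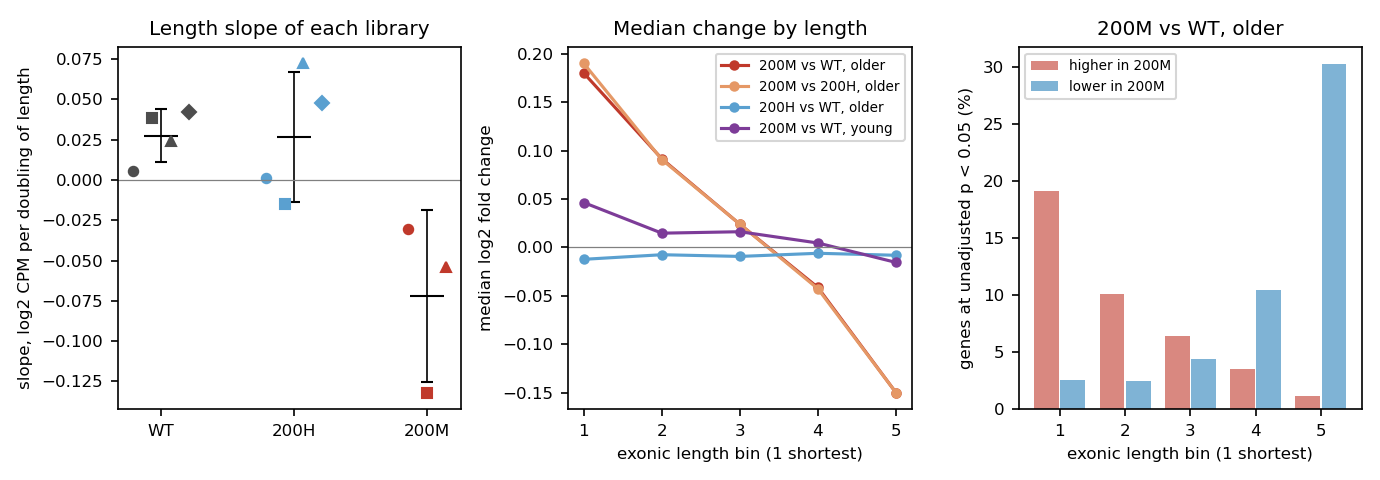
Transcript length and expression in older hypothalamus. Left, slope of each library's log2 CPM deviation from the mean of the 11 libraries on log2 exonic length, with the mean and SD of each group (WT and 200H, n = 4; 200M, n = 3). Middle, median log2 fold change in 5 bins of exonic length for 4 comparisons. Right, percent of genes in each bin with an unadjusted p under 0.05 in 200M against WT. All 200M libraries have a slope below 0, and the longest bin holds 30.2% lower genes.

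The length trend was a property of each 200M library, to different extents. The slope of log2 CPM per doubling of exonic length was 0.00557, 0.0382, 0.0242 and 0.0419 in the WT libraries and 0.00116, −0.0149, 0.0723 and 0.0478 in 200H. It was −0.0304, −0.132 and −0.0538 in 200M replicates 1 to 3, below all 8 other libraries. The difference, 200M minus WT, was −0.0995 (exact permutation test, two-sided, p = 0.0571, the smallest that 4 against 3 libraries allows, and 0.3 after adjustment over 21 library measures). Across 16032 genes the rank correlation of the fold change with length was −0.46, a description over genes that share the same 7 libraries. It was 0.02 in 200H against WT, −0.04 in young 200M against WT and 0.21, the other way, in older pituitary 200M against WT. RNA integrity values were not given in the sources used here, and the part of RNA quality in this trend was not tested. Among the other measures, the summed markers of microglia, red cells and oligodendrocyte precursors, given below, did not overlap between WT and 200M. The shares of counts that follow overlapped between the groups, which does not test RNA quality. The mitochondrial genome took 3.69 to 4.82% of counts in WT and 4.24 to 4.58% in 200M. Nuclear-retained RNAs took 1.03 to 1.41% and 1.17 to 1.26%, with overlap only through WT replicate 1 at 1.03%. Ribosomal protein genes took 0.37 to 0.439% and 0.421 to 0.571%, with overlap only between WT replicate 1 (0.439%) and 200M replicate 1 (0.421%). When each library's trend on length was removed with offsets, 1844 genes (11.5%) had an unadjusted p under 0.05, 5.04% of all genes higher and 6.44% lower. Of these 2 passed by edgeR (0.0124%), Gh higher and Xkr4 lower, and 125 genes passed by DESeq2. Both sets of values are given below for gene groups whose members are long or short. Counts in gene groups stand against 8.07% of all genes higher and 10.0% lower. With the length trend removed they stand against 5.04% and 6.44%.

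Genes of the core machinery of the cell, most of them short, leaned higher together. Among 76 nuclear genes of oxidative phosphorylation, the mitochondrial pathway that makes ATP, 59 were higher and none lower at an unadjusted p under 0.05, against 8.07% of all genes higher, and none passed by edgeR. Uqcrh, a subunit of complex III, was at 159, 149, 127 and 131 CPM in WT and 172, 221 and 199 CPM in 200M (log2 fold change 0.48 ± 0.11, edgeR adjusted p = 0.105). Cox4i1, a subunit of complex IV, was at 315 to 349 CPM in WT and 398 to 469 CPM in 200M (0.36 ± 0.08, edgeR adjusted p = 0.111). With the length trend removed Uqcrh was at 0.29 and Cox4i1 at 0.19. The median of the list was 0.30, against 0.02 for all genes, and 0.14 with the length trend removed, where 21 genes were higher at that level. The 7 tested protein genes of the mitochondrial genome had a median of −0.02. Of 82 ribosomal protein genes 33 were higher and none lower, with a median of 0.26, and 0.13 with the length trend removed. With that trend removed 9 of them were higher, against 5.04% of all genes. Many ribosomal protein genes have processed pseudogenes that can share reads with them. Of 34 proteasome genes 12 were higher and none lower, with medians of 0.21 and 0.09. With the length trend removed only 1 proteasome gene was higher, against the same 5.04%. Histone mRNAs, which mostly lack a poly(A) tail, passed the filter for only 9 of 68 genes. All 9 had a positive log2 fold change and 6 an unadjusted p under 0.05, among them Hist1h2bc at 13.5 to 15.7 CPM in WT and 20.8 to 23.7 CPM in 200M.

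**Figure D2:**
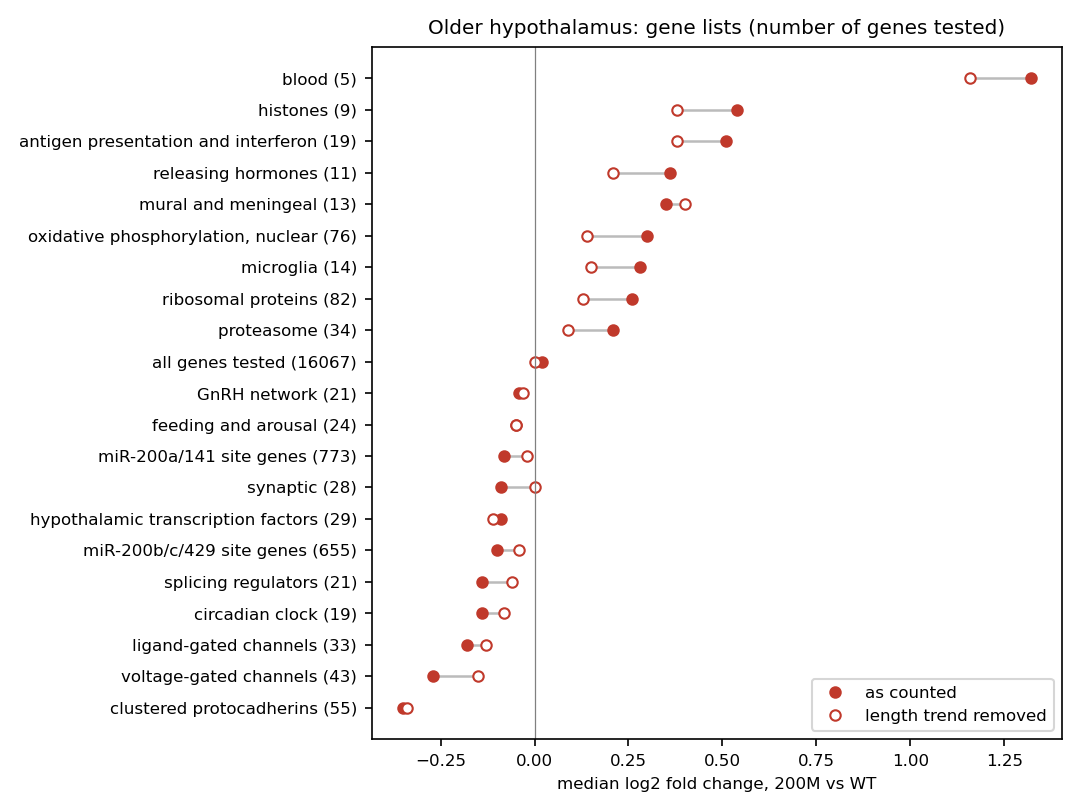
Median log2 fold change, 200M against WT, of gene lists in older hypothalamus, as counted (filled) and with the trend on exonic length removed (open); the number of genes tested is in brackets. The oxidative phosphorylation list moves from 0.30 to 0.14 and the voltage-gated channels from −0.27 to −0.15, while the protocadherins stay near −0.35.

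Genes for channels and receptors of neurons leaned lower. Of 43 voltage-gated channel genes, which set how neurons fire, 23 were lower and 1 higher at an unadjusted p under 0.05, against 10.0% of all genes lower, and none passed by edgeR while 9 were called lower by DESeq2. Kcnma1, the large-conductance calcium-activated potassium channel, was at 30.2, 30.8, 46.7 and 51.6 CPM in WT and 24.6, 15.4 and 19.6 CPM in 200M (log2 fold change −1.01 ± 0.21, edgeR adjusted p = 0.101). Scn3a, a sodium channel, was at 92.8 to 109 CPM in WT and 64.7 to 79.1 CPM in 200M (−0.49 ± 0.10, adjusted p = 0.101 by edgeR), and its value was −0.31 with the length trend removed. The groups did not overlap for either gene. The median of the list was −0.27, and −0.15 with the length trend removed, where 12 were lower and 2 higher. In older pituitary 27 of 42 tested genes of this list were higher in 200M by edgeR, where 11.7% of all genes were. Of 33 ionotropic receptor genes 13 were lower and 1 higher in hypothalamus, with medians of −0.18 and, without the length trend, −0.13. Glra1, a glycine receptor subunit, was at 3.44, 4.60, 8.83 and 8.71 CPM in WT and 3.45, 1.52 and 1.57 CPM in 200M (−1.59 ± 0.39, edgeR adjusted p = 0.112), the lowest WT value lying just under the highest 200M value.

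Few synaptic vesicle genes stood out. Of 28 synaptic vesicle and exocytosis genes 4 were lower and 1 higher at an unadjusted p under 0.05, against 10.0% and 8.07% of all genes. The scaffold gene Pclo was at 255, 305, 334 and 345 CPM in WT and 226, 196 and 208 CPM in 200M (log2 fold change −0.57 ± 0.11, edgeR adjusted p = 0.098). Its relative Bsn was at 152 to 230 and 121 to 151 CPM (−0.44, edgeR adjusted p = 0.148). Both mRNAs are very long, and with the length trend removed Pclo was at −0.26 and Bsn at −0.20. With the length trend removed the median of this list was 0.00. Clustered protocadherins, cell surface proteins that give neurons distinct identities, kept their shift. Of 55 tested, 20 were lower and none higher, against 10.0% of all genes lower. With the length trend removed 22 were lower, against 6.44% of all genes. The medians were −0.35 and, with the trend removed, −0.34. Pcdha9 was at 3.88 to 5.44 CPM in WT and 1.71 to 3.36 CPM in 200M (−1.01 ± 0.26, edgeR adjusted p = 0.116). These genes share exons within a cluster, so reads can be ambiguous between them, and they are weakly expressed. Of 21 splicing regulators of neurons 4 were lower and none higher, among them Celf1 (−0.36, edgeR adjusted p = 0.112) and Nova2 (−0.37, edgeR adjusted p = 0.154). With the length trend removed 3 were lower, against 6.44% of all genes.

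Some single genes outside these lists also came close to the threshold. They are named after their values were seen. Xkr4, a membrane protein gene, was at 23.5, 22.2, 28.1 and 24.6 CPM in WT, 18.7, 18.9, 39.6 and 26.9 CPM in 200H and 14.2, 9.91 and 11.8 CPM in 200M (log2 fold change −1.05 ± 0.14, edgeR adjusted p = 0.059). It passed with the length trend removed (−1.01, edgeR adjusted p = 0.0373). Trpc5, a cation channel, was at 17.1 to 26.0 CPM in WT and 7.37 to 13.0 CPM in 200M (−1.10, edgeR adjusted p = 0.098, and −1.09 with the length trend removed). Zfhx3, a zinc-finger homeobox factor of the circadian pacemaker nucleus, was at 62.0 to 89.1 and 43.5 to 51.3 CPM (−0.72, edgeR adjusted p = 0.098, and −0.43 with the length trend removed).

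**Figure D3:**
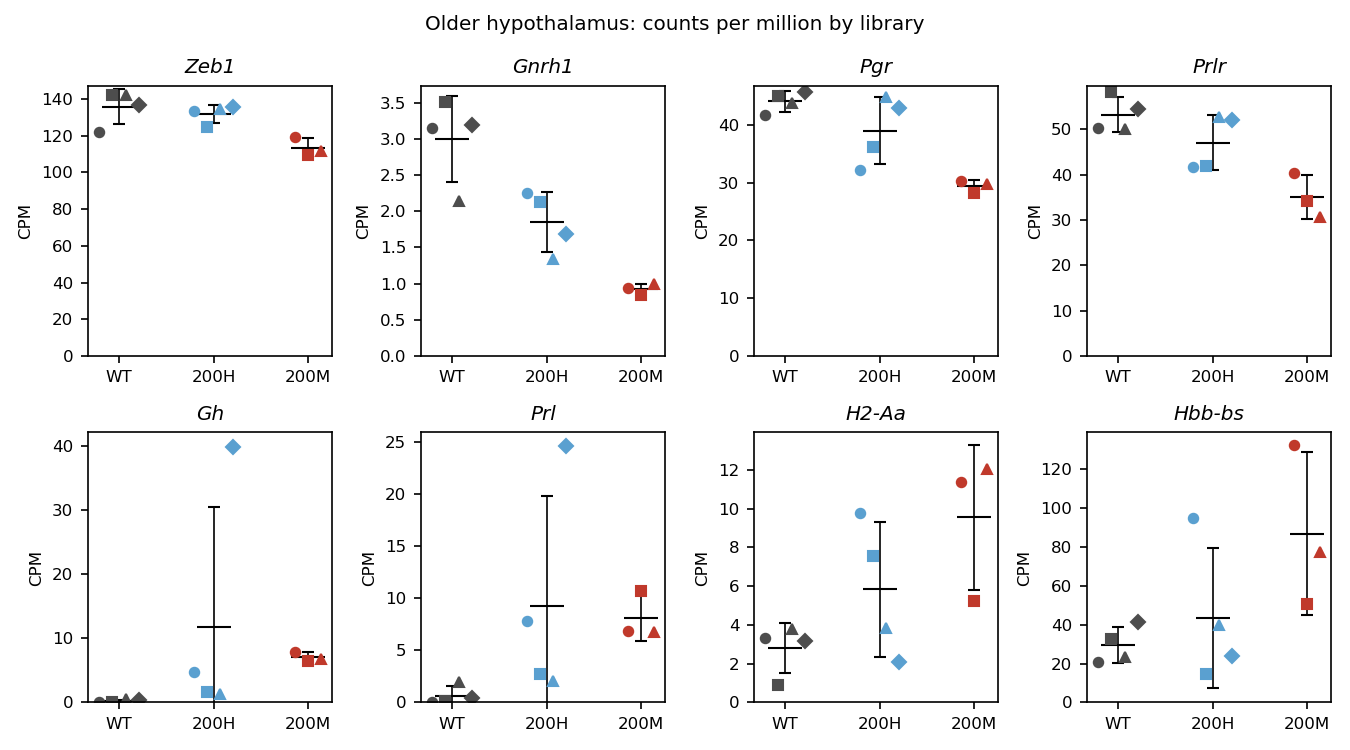
CPM of 8 genes in each older hypothalamus library by genotype, with the mean and SD of each group (WT and 200H, n = 4; 200M, n = 3); the marker shape is the replicate number. The 200M libraries lie below all WT libraries for Zeb1, Gnrh1, Pgr and Prlr and above them for Gh, Prl, H2-Aa and Hbb-bs.

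Gnrh1 and 2 of the receptors by which hormones act back on its neurons had their lowest levels in the 200M libraries, short of the threshold. Gnrh1 (ENSMUSG00000015812, chromosome 14, 67745181 to 67749439), the GnRH gene, was at 3.16, 3.52, 2.15 and 3.19 CPM in WT, at 2.25, 2.13, 1.34 and 1.69 CPM in 200H and at 0.933, 0.847 and 0.998 CPM in 200M. These levels are 26 to 41 counts in WT and 10 to 14 in 200M. The 200M libraries lay below all others, and 3 of the 4 200H libraries lay between the WT and the 200M libraries. The log2 fold change in 200M was −1.69 ± 0.28 (edgeR adjusted p = 0.098) and in 200H −0.70 ± 0.24 (unadjusted p = 0.0112). Gnrh1 is a short gene (642 nt), and its fold change was −1.88 with the length trend removed (edgeR adjusted p = 0.0903). DESeq2 gave it a log2 fold change of −1.70 (unadjusted p = 2.16e-05) but no adjusted p. It passed without WT replicate 1 (edgeR adjusted p = 0.0344) and without 200M replicate 1 (0.0482). Over the 7 ways of leaving out a library its fold change ran from −1.82 to −1.60 and its adjusted p from 0.0344 to 0.342. GnRH neurons are few and scattered, and in bulk tissue fewer cells of a type and less RNA per cell cannot be told apart.

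Pgr (ENSMUSG00000031870, chromosome 9, 8899833 to 8968611), the progesterone receptor, was at 41.7, 45.0, 43.8 and 45.7 CPM in WT, 32.2, 36.1, 44.8 and 42.9 CPM in 200H and 30.2, 28.2 and 29.8 CPM in 200M. The 200M libraries were the lowest 3 of the 11. Its log2 fold change was −0.59 ± 0.09 (edgeR adjusted p = 0.0917; DESeq2 adjusted p = 5.2e-05) and −0.48 with the length trend removed. The prolactin receptor gene Prlr was at 50.3, 58.2, 50.0 and 54.6 CPM in WT and 40.4, 34.2 and 30.7 CPM in 200M (−0.61 ± 0.11, edgeR adjusted p = 0.098; DESeq2 adjusted p = 0.000233), and at −0.39 with the length trend removed. The estrogen receptor gene Esr1, named after its values were seen, was at 25.4 to 36.2 and 22.9 to 29.1 CPM, with overlapping groups. Of the 21 tested genes of the GnRH network list, 6 were lower and 1 higher at an unadjusted p under 0.05, and 5 lower and none higher with the length trend removed. The 6 are 28.6% of the list, against 10.0% of all genes. Pgr and Prlr passed in edgeR without WT replicate 1 (adjusted p = 0.0301 and 0.0345) or without 200M replicate 1 (adjusted p = 0.0387 and 0.0311). Kiss1, whose product drives GnRH neurons, was not analysed here. Tac2, the neurokinin B gene of the same neurons, was at 41.8 to 47.6 CPM in WT and at 44.8, 72.8 and 48.0 CPM in 200M.

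The main hypothalamic peptides did not pass the test. Avp and Oxt, which encode vasopressin and oxytocin, had log2 fold changes of 0.047 and 0.0656, with signs that turned when the length trend was removed (−0.14 each). Of 11 genes for releasing, inhibiting and neurohypophysial hormones and dopamine synthesis 4 were higher and 1 lower at an unadjusted p under 0.05. Of all genes 8.07% were higher and 10.0% lower at that level. The 4 include Slc6a3 and Th, genes of dopamine transport and synthesis rather than hormones, both highest in 200M replicate 1. Sst, the somatostatin gene, was at 160 to 174 CPM in WT and at 166, 304 and 201 CPM in 200M (0.42 ± 0.16, edgeR adjusted p = 0.199, and 0.21 with the length trend removed). Trh and Crh were at 147 to 158 and 3.58 to 7.94 CPM in WT and at 122 to 152 and 5.08 to 8.40 CPM in 200M. Of 24 feeding and arousal genes 1 was higher and 4 lower. Pomc was at 44.4 to 82.6 CPM in WT and 56.3, 135 and 80.8 CPM in 200M, Npy at 16.3 to 30.7 and 26.1, 49.0 and 21.1 CPM, and Agrp at 3.07 to 7.68 and 7.75, 10.8 and 4.21 CPM. For Tac2, Sst, Pomc, Npy and Agrp the highest value was in 200M replicate 2, and their groups overlapped. The arousal peptide genes Hcrt and Pmch overlapped between genotypes as well (log2 fold changes of 0.36 and 0.0786). The ghrelin receptor gene Ghsr was at 12.1, 12.7, 11.2 and 14.0 CPM in WT and 8.68, 8.98 and 6.20 CPM in 200M (−0.67 ± 0.16, edgeR adjusted p = 0.112), and the groups did not overlap. Glp1r, the receptor for glucagon-like peptide 1, was at 2.98 to 7.68 and 2.21 to 3.27 CPM (−0.86, edgeR adjusted p = 0.214).

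Regional transcription factors did not pass the test by edgeR. Of 29 tested, 5 were lower and 2 higher at an unadjusted p under 0.05, against 10.0% and 8.07% of all genes. With the length trend removed 7 were lower and 2 higher, against 6.44% and 5.04%. Foxb1, a factor of the mammillary region, was at 9.75, 9.02, 14.0 and 13.4 CPM in WT and 8.40, 6.10 and 6.13 CPM in 200M (log2 fold change −0.76 ± 0.20, edgeR adjusted p = 0.116). Sim1, a factor of the paraventricular nucleus, was at 16.2 to 20.8 CPM in WT and 14.0, 8.04 and 13.3 CPM in 200M (−0.67, edgeR adjusted p = 0.119). Dlx1, a factor of GABA neurons, was at 51.9 to 57.4 and 45.0 to 45.9 CPM (−0.28, edgeR adjusted p = 0.134). The 200M libraries lay below all WT libraries for these 3 genes.

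Gh, the growth hormone gene (ENSMUSG00000020713, chromosome 11, 106300271 to 106301865), was the gene that rose. It had 0, 0, 6 and 4 counts in the WT libraries and 85, 77 and 95 in 200M, which is 0 to 0.495 CPM against 7.93, 6.52 and 6.77 CPM. Its log2 fold change was 4.98 ± 0.48 (edgeR adjusted p = 0.00296), a size that rests on few WT counts, with 2 WT libraries at 0. The 200H libraries also held it, at 4.67, 1.66, 1.26 and 39.8 CPM, each above every WT library. DESeq2 gave it a log2 fold change of 5.05 ± 0.54 (unadjusted p = 1.15e-20) but no adjusted p. In a joint fit of the 11 libraries its edgeR adjusted p was 0.112. The prolactin gene Prl moved with it: 0, 1, 24 and 6 counts in WT and 74, 126 and 95 in 200M (log2 fold change 3.60 ± 0.60, edgeR adjusted p = 0.098). Prl passed without WT replicate 3 (edgeR adjusted p = 0.00271), without WT replicate 1 (0.0301) and without 200M replicate 1 (0.0428).

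Gh and Prl are made above all by somatotropes and lactotropes of the anterior pituitary, the gland that hangs below the hypothalamus. In older WT pituitary, scaled separately, they were at 102132 and 190281 CPM. The gonadotropin and thyrotropin genes, like Prl named after their values were seen, overlapped between the groups. Lhb had 5 to 26 counts in WT and 4 to 11 in 200M, Fshb 0 to 5 and 0 to 5, Cga 0 to 120 and 25 to 94, and Tshb 20 to 59 and 31 to 50. Pomc, which hypothalamic neurons and pituitary cells both express, had a log2 fold change of 0.61 (edgeR adjusted p = 0.243), and was at 9573 CPM in WT pituitary. Of the 12 genes on the pituitary list 7 were tested and 3 were higher at an unadjusted p under 0.05, the third being the factor Pitx1, with 15, 2, 0 and 19 counts in WT and 19, 44 and 28 in 200M. No gene of the list was at 0 in all 11 libraries. The summed level of the list was 19.4 to 41.5 CPM in WT, 26.2 to 83.7 CPM in 200H and 36.0 to 52.2 CPM in 200M. The part of attached pituitary tissue in the rise of Gh was not tested. In young hypothalamus, where 3 of 14988 genes (0.0200%) passed by edgeR, 2 higher (0.0133%) and 1 lower (0.00667%), Prl was lower in 200M (log2 fold change −2.86, edgeR adjusted p = 0.00605) and Tshb and Lrat were higher (4.81 and 3.63). Gh in the young averaged 4.03 ± 2.10 CPM over the 4 WT libraries and 1.96 ± 1.27 CPM (SD) over the 4 of 200M, in the other direction from the older cohort.

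**Figure D4:**
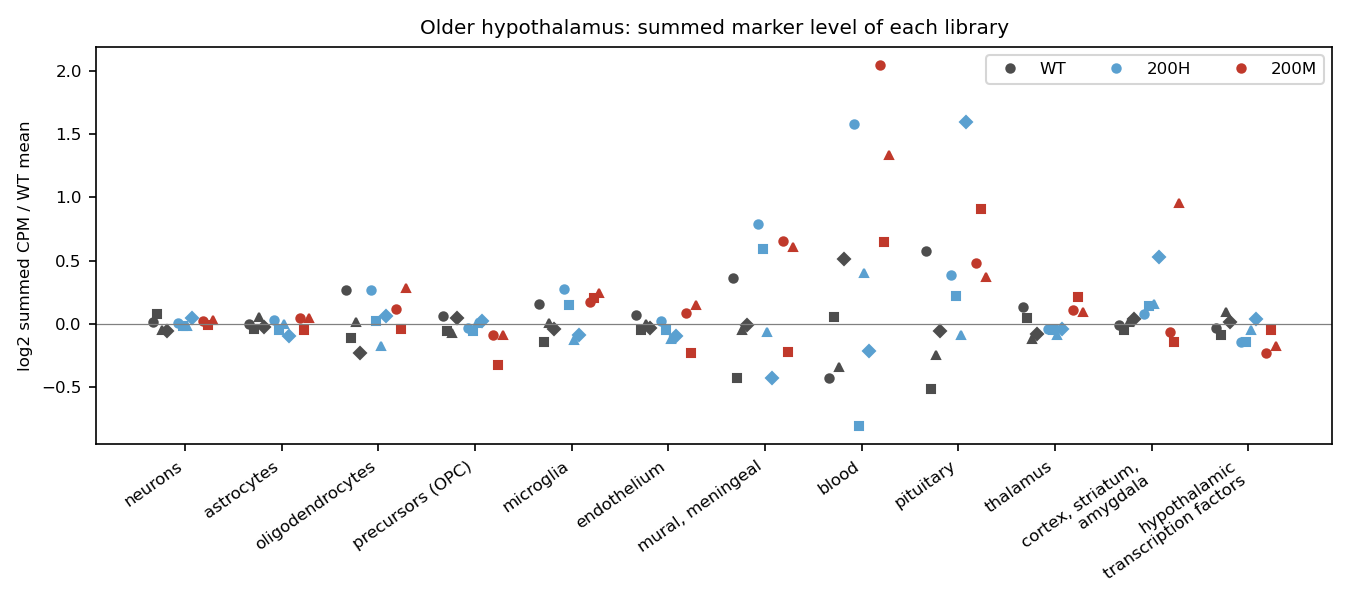
Summed CPM of cell type and regional marker lists in each older hypothalamus library, as log2 of the ratio to the WT mean (WT and 200H, n = 4; 200M, n = 3; the marker shape is the replicate number). Neuronal and astrocyte sums lie within a narrow range, and the blood, pituitary, mural and striatal sums are more scattered.

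Genes of immune cells and blood leaned higher in 200M. Of 19 tested antigen presentation and interferon genes all had a positive log2 fold change, 14 were higher and none lower at an unadjusted p under 0.05, against 8.07% of all genes higher. None passed by edgeR and DESeq2 called 7, against 0.957% of all genes called higher. H2-Aa, a class II major histocompatibility gene, was at 3.34, 0.902, 3.80 and 3.19 CPM in WT, 9.80, 7.58, 3.86 and 2.09 CPM in 200H and 11.4, 5.25 and 12.1 CPM in 200M (log2 fold change 1.75 ± 0.37, edgeR adjusted p = 0.101). H2-Eb1, a partner gene, was at 0.902 to 3.81 CPM in WT and 4.74 to 9.15 CPM in 200M (1.53, edgeR adjusted p = 0.112). The class I gene H2-D1 was at 47.5 to 64.7 and 73.6 to 84.2 CPM (0.46, edgeR adjusted p = 0.112), without overlap. The class II chaperone gene Cd74, named after its values were seen, was at 3.25 to 11.3 and 10.8 to 22.5 CPM. With the length trend removed 11 of the list were higher and none lower. The list's median was 0.51, and 0.38 without the trend, against 0.02 for all genes.

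Of 14 microglial markers 7 were higher and none lower, against the same 8.07%, with a median of 0.28, and 0.15 with the length trend removed. The complement genes C1qa and C1qb, made by microglia, were at 32.8 to 46.0 and 33.6 to 43.1 CPM in WT and at 49.5 to 56.7 and 47.1 to 54.5 CPM in 200M (log2 fold changes of 0.49 and 0.40, edgeR adjusted p of 0.112 and 0.116, and 0.30 and 0.21 with the length trend removed). The summed level of the microglial list was 379 to 468 CPM in WT and 474 to 496 CPM in 200M, without overlap, and 384 to 507 CPM in 200H. All 5 tested red cell genes were higher at that level, against 8.07% of all genes, and DESeq2 called 4 of them. The globin gene Hbb-bs was at 20.6, 32.7, 23.5 and 41.3 CPM in WT, 95.1, 14.4, 39.8 and 24.1 CPM in 200H and 133, 50.7 and 77.3 CPM in 200M (1.54 ± 0.29, edgeR adjusted p = 0.098). Alas2, a heme synthesis enzyme of red cells, was at 2.81 to 4.28 and 6.61 to 12.4 CPM (1.37 ± 0.23, edgeR adjusted p = 0.098). The summed red cell level was 36.8 to 70.4 CPM in WT and 77.3 to 204 CPM in 200M, with 1 of the 200H libraries at 148 CPM. How much blood was left in the tissue of each animal was not tested as a source of the immune and red cell values. Igkc, an antibody light chain gene named after its values were seen, had 2 to 6 counts in WT and 13 to 56 in 200M, but 572 in 1 of the 200H libraries.

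Summed markers of neurons and astrocytes were much alike in WT and 200M. The summed level of 12 neuronal markers was 5803 to 6358 CPM in WT and 5987 to 6163 CPM in 200M, and that of 12 astrocyte markers 5059 to 5407 and 5034 to 5379 CPM. Of the astrocyte markers 4 were higher and 1 lower at an unadjusted p under 0.05, against 8.07% and 10.0% of all genes. Among them Aldoc was at 1030 to 1224 CPM in WT and 1264 to 1424 CPM in 200M. Of 20 myelin and oligodendrocyte genes 2 were higher and none lower. The sum of 8 oligodendrocyte precursor markers was 292 to 320 CPM in WT and 245 to 288 CPM in 200M, below all WT and 200H libraries. Of these markers 2 were lower and 1 higher at that level, and none either way with the length trend removed. The lower ones, Vcan and Cspg4, are long (14462 and 11931 nt). Their log2 fold changes were −0.35 and −0.37, and −0.14 and −0.19 with the length trend removed. Of 12 endothelial markers 4 were higher and none lower, among them the tight junction gene Cldn5 at 20.5 to 31.5 CPM in WT and 32.9 to 47.6 CPM in 200M (log2 fold change 0.55, edgeR adjusted p = 0.136). Mural and meningeal markers had a median of 0.35, 2 of 13 were higher, and their sum was 298 to 515 CPM in WT and 343 to 631 CPM in 200M. None of the 21 library measures had an adjusted exact p under 0.3. The exact test of 4 against 3 libraries gives no p under 0.0571, so no measure could pass the threshold.

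Markers of neighbouring regions varied between libraries. Slc17a7, a glutamate transporter of cortex and hippocampus, was at 1.08 to 2.15 CPM in WT, at 1.68, 0.762 and 22.7 CPM in 200M and at 17.4, 47.0, 21.5 and 3.68 CPM in 200H, where every library lay above every WT library. The striatal genes Adora2a and Ppp1r1b were at 18.7 and 87.1 CPM in 200M replicate 3, against 1.44 to 2.79 and 17.9 to 21.6 CPM in WT and 1.78 to 1.96 and 21.6 to 29.1 CPM in the other 200M libraries. Without 200M replicate 3 the log2 fold changes of Slc17a7 and Adora2a turned to −0.49 and −0.16. The dopamine transporter gene Slc6a3 was at 192 CPM in 200M replicate 1, at 25.7 and 29.1 CPM in the others and at 5.37 to 35.6 CPM in WT, and Th, the enzyme of dopamine synthesis, at 152, 69.3 and 57.0 CPM in 200M and 47.1 to 61.9 CPM in WT. Of 15 tested cortical, striatal and amygdalar markers 5 were higher and 1 lower at an unadjusted p under 0.05. Of all genes 8.07% were higher and 10.0% lower. The sum of 16 cortical, striatal and amygdalar markers was 266 to 283 CPM in WT and 249, 264 and 535 CPM in 200M. The part of tissue outside the hypothalamus in these values was not tested.

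Hormone-responsive, activity-dependent and clock genes did not pass the test by edgeR. Of all genes 10.0% were lower and 8.07% higher at an unadjusted p under 0.05, the shares against which each small count below stands. Of 14 genes raised by glucocorticoid 3 were lower and 1 higher at that level. Zbtb16, a zinc-finger factor on that list, was at 27.4, 27.6, 28.4 and 20.7 CPM in WT, 10.4, 19.3, 12.6 and 18.8 CPM in 200H and 9.24, 3.81 and 16.2 CPM in 200M. All 7 mutant libraries lay below all WT libraries. Its log2 fold changes were −1.40 ± 0.32 in 200M (edgeR adjusted p = 0.112) and −0.77 ± 0.18 in 200H (unadjusted p = 0.000863). Of 19 immediate early genes 2 were lower and none higher, among them Fosl2 at 36.7 to 59.9 CPM in WT and 28.6 to 38.6 CPM in 200M (−0.55, edgeR adjusted p = 0.127). Of 19 circadian clock genes 6 were lower and none higher, the transcription factor gene Clock at 98.2 to 106 and 71.3 to 93.3 CPM (−0.30, edgeR adjusted p = 0.168). With the length trend removed 4 were lower, against 6.44% of all genes, and Clock was at −0.10. The mice were compared in proestrus and the time of day of collection is not given in the labels. Of 8 genes of prolactin receptor signalling 2 were lower and 1 higher, of 11 estrogen-responsive genes 1 was lower, of 18 endoplasmic reticulum stress genes 2 were higher and 1 lower, of 12 heat shock genes 2 were higher and of 19 cholesterol synthesis genes 2 were higher. Of 7 nuclear-retained RNAs Neat1 was higher, at 144 to 183 CPM in WT and 191 to 249 CPM in 200M (log2 fold change 0.43 as counted and 0.70 with the length trend removed; edgeR adjusted p = 0.114 and 0.0903). Meg3 and Malat1 (the latter chosen after its values were seen) overlapped between the groups. Of 12 thalamic markers 2 were higher and 1 lower, of 12 tanycyte and ependymal markers 1 each way, of 9 tested choroid plexus markers 1 was higher, of 13 basement membrane genes 1 was lower, of 12 prohormone processing genes 3 were higher and 1 lower, and of 11 tested transmitter identity genes 4 were higher and 2 lower.

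Among genes with predicted miR-200 sites more were lower than higher in 200M hypothalamus. Of 655 tested genes with an 8-base match to the miR-200b seed in an annotated 3′ UTR, 17 were higher and 143 lower at an unadjusted p under 0.05, against 8.07% and 10.0% of all genes, with a median log2 fold change of −0.10. Of 773 with a match to the miR-200a seed 26 were higher and 168 lower, with a median of −0.08. The 13000 tested genes with an annotated 3′ UTR and no such match had a median of 0.03, with 1182 higher and 1194 lower. Genes with a match are long (median exonic lengths of 6571 and 6819 nt, against 4344 nt without), and with the length trend removed the medians were −0.04, −0.02 and 0.01. The counts were then 27 higher and 56 lower for the miR-200b seed and 46 higher and 73 lower for the miR-200a seed. Of all genes 5.04% were then higher and 6.44% lower, and of the longest bin 7.30% and 9.23%. The bin of 5051 to 7387 nt, which holds both median lengths of genes with a match, had 5.61% higher and 7.55% lower. As counted that bin had 3.52% higher and 10.4% lower. Among genes with a match, Kif26b, a kinesin family gene with both, was at 45.8 to 51.8 CPM in WT and 28.5 to 36.6 CPM in 200M (−0.60, edgeR adjusted p = 0.098, and −0.39 with the length trend removed). Zfp871 was at 27.6 to 43.3 and 13.9 to 20.2 CPM (−0.99, edgeR adjusted p = 0.098). Arfgef3 was at 188 to 222 and 116 to 164 CPM (−0.61, edgeR adjusted p = 0.098, and −0.40 with the length trend removed). A match is a stretch of letters and not a tested site. Of 30 tested genes within 5 Mb of Zeb1, 2 were higher and 3 lower.

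Values of the same genes in the other comparisons were set beside these. The comparisons of 200H and of 200M against WT share the WT libraries, whereas the young animals and libraries are separate and were counted from stranded, ribosomal RNA-depleted paired-end libraries. In the young 847 genes (5.65%) had an unadjusted p under 0.05, 3.02% higher and 2.64% lower, and DESeq2 called 0%. Of 13100 genes tested in both cohorts, 1042 were higher in older 200M at an unadjusted p under 0.05, and 52 of these (4.99%) were also higher in young 200M, against 3.13% of all genes. Of the 410 genes higher in the young, the 52 are 12.7%, against 7.95% of all genes that were higher in the older. Of 1530 lower in the older, 52 (3.40%) were also lower in the young, against 2.47% of all genes. These are 16.1% of the 323 lower in the young, against 11.7% of all genes that were lower in the older. Pgr, Prlr, Zfhx3, Xkr4 and Trpc5 had log2 fold changes of −0.14, 0.0662, −0.0605, −0.11 and 0.0117 in young 200M. Gnrh1 fell short of the filter in the young, with means of 1.25 ± 0.26 CPM over 4 WT and 1.37 ± 1.03 CPM (SD) over 4 mutant libraries. The neuropeptide gene Cck and the calcium-binding protein gene S100a1, named after their values were seen, had log2 fold changes of 0.81 and 0.49 in the older (edgeR adjusted p = 0.105 and 0.098) and 0.76 and 0.47 in the young (unadjusted p = 0.000638 and 0.00315, edgeR adjusted p = 0.64 and 0.811). With the length trend removed S100a1 was at 0.29 in the older cohort.

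**Figure D5:**
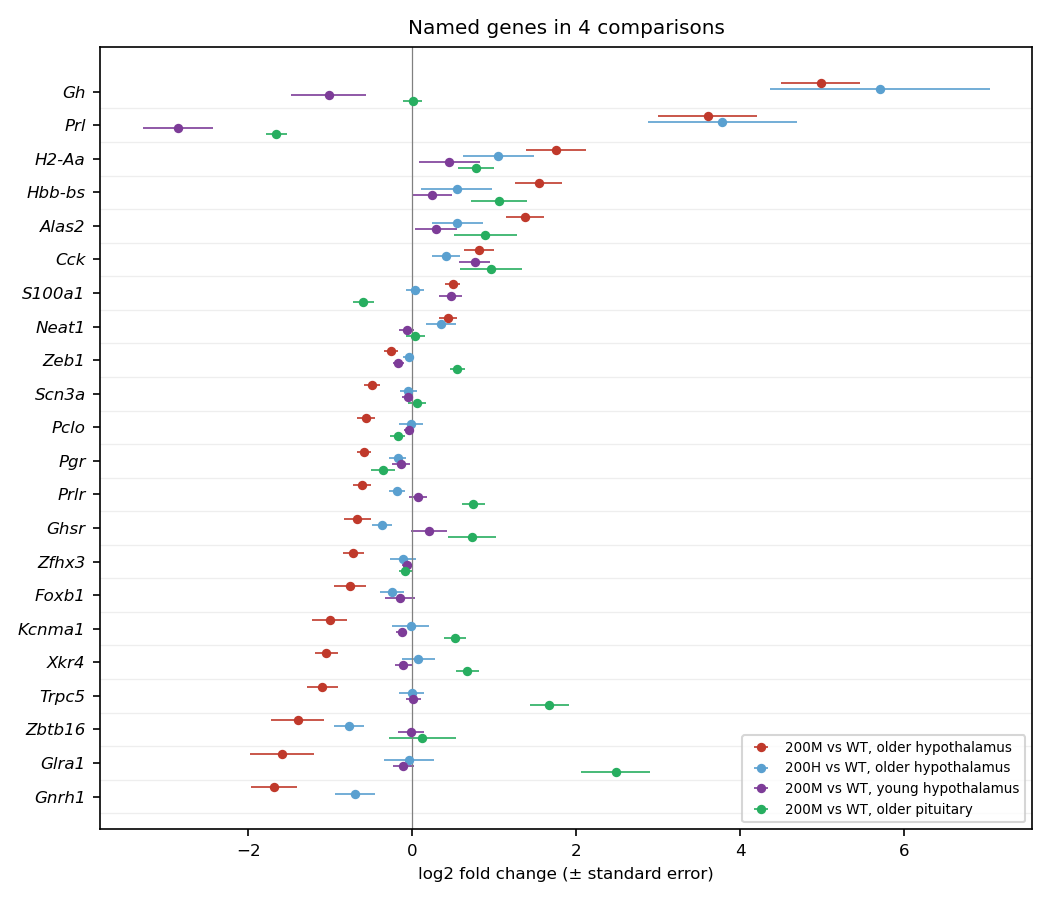
Log2 fold change with its standard error of 22 named genes in 4 comparisons: older hypothalamus 200M and 200H against WT (sharing the WT libraries), young hypothalamus 200M against WT, and older pituitary 200M against WT. Genes without a point were not tested in that comparison. Gh and Prl are above 0 in both older hypothalamus comparisons and below 0 in the young, and Trpc5 and Glra1 lie below 0 in older hypothalamus and above 0 in pituitary.

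The 200M effect differed between older hypothalamus and older pituitary for many genes. The difference itself (hypothalamus minus pituitary) passed by edgeR for 3000 of 17180 genes (17.5%), 1217 higher (7.08%) and 1783 lower (10.4%). For Zeb1 it was −0.81 (edgeR adjusted p = 0.000118), where the log2 fold change in pituitary was 0.55, and it was −0.52 with the length trend removed (edgeR adjusted p = 0.00448). For Prlr it was −1.35 (edgeR adjusted p = 7.65e-05), with a pituitary value of 0.74. For the channel genes Kcnma1 and Trpc5 it was −1.54 and −2.77, with pituitary values of 0.52 and 1.67. The trend on length ran in opposite directions in the 2 tissues, with slopes of −0.0969 and 0.094 on the log2 scale per doubling of exonic length. With each library's length trend removed 2459 genes passed.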

How the data were processed

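Gene counts were measured by RNA-seq. The authors deposited raw counts per gene: per the labels and the study's methods, older libraries were aligned to mm10 with STAR 2.7.1a and counted with htseq-count 0.9.1 without strand (Ensembl annotation of GRCm38), and young libraries were counted by strand with featureCounts. The deposited tables also hold the authors' normalized values, fold changes and p-values, which were not used. Genes were named and measured with GENCODE M21 (GRCm38), where 49326 of 49585 gene IDs matched, and the same annotation gave the 3′ UTRs searched for CAGTATTA and CAGTGTTA.

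edgeR 4.0.16 (R 4.3.3) was used for filterByExpr, TMM scaling and the quasi-likelihood test between the 2 groups compared, with Benjamini-Hochberg adjustment over all genes tested and a threshold of 0.05. The tissue difference was an interaction contrast. CPM values use TMM factors over the 11 older hypothalami. The length trend was a spline (6 degrees of freedom) of each library's log2 CPM deviation on log2 exonic length, removed as an offset. Library measures were compared with the exact permutation test. Alternatives were DESeq2 1.42.0, no filter, upper-quartile scaling, all 11 libraries in 1 fit, length and GC trends, a replicate block and leaving out each library. DESeq2 without each library and with the length trend removed were added after seeing the data. The scripts were tested on simulated data. The 7 libraries held 10627465 to 13917738 counts.

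The comparison, the gene lists and the tests were chosen with earlier results of these data known. Named genes were 6 of the loop; called protein-coding genes with groups that do not overlap, by p (12 each way); 5 each way by fold; per list up to 6 called, or the 3 of smallest p where none was called; 13 peptide and enzyme genes by name; and those said to be named after their values were seen. Only Gh was called, so most named genes did not pass the test. Same-numbered WT and 200M libraries had correlated deviations of 0.14, −0.08 and −0.04, so the numbers do not pair them. Some genes of the lists are not reported here by name.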

Additional observations from a re-analysis of the deposited data

Results flagged for a closer look

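Among 194 groups of 4 libraries tested (WT and 200H, over the genes and library measures of the text), 12 had 1 library far from the other 3, where chance gives about 1 in 20. In 200H, replicate 4 stood apart for Gh (39.8 CPM against 1.26 to 4.67), Adora2a (9.35 CPM against 1.18 to 1.74) and the summed cortical and striatal markers (397 CPM against 290 to 307). In 200H replicate 2, Igkc was at 45.1 CPM against 0.597 to 2.43, Tac2 at 47.0 CPM against 39.3 to 40.6 and Zeb1 at 125 CPM against 134 to 135. Foxb1 was at 10.8 CPM in 200H replicate 3 against 9.31 to 9.55. In WT replicate 1, Cck was at 17.9 CPM against 12.7 to 13.5, the epithelial protease inhibitor gene Spint2 at 79.3 CPM against 65.2 to 67.6, and nuclear-retained RNAs took 1.03% of counts against 1.40 to 1.41%. In WT replicate 4, Scn3a was at 109 CPM against 92.8 to 95.4 and Zbtb16 at 20.7 CPM against 27.4 to 28.4. The 200M group has 3 libraries and was not examined in this way.

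The 200M effect differed between older hypothalamus and older pituitary by edgeR, in an interaction contrast, for 29 of the 76 genes of the text that could be tested. The difference of log2 fold changes, hypothalamus minus pituitary, was positive for Gh (4.95), Prl (5.25), Epcam (3.66), Spint2 (1.75), F11r (1.34), Pitx1 (1.87), S100a1 (1.10), Hist1h2bc (0.79), Uqcrh (0.71), Cox4i1 (0.37) and the ribosomal protein gene Rpl38 (1.24). It was negative for Zeb1 (−0.81), Cdh2 (−0.72), Prlr (−1.35), Ghsr (−1.40), Oxt (−1.18), Kcnma1 (−1.54), Scn3a (−0.56), Glra1 (−4.07), the GABA receptor gene Gabrb1 (−1.42), Bsn (−0.74), Celf1 (−0.44) and Nova2 (−0.77). It was also negative for Clock (−0.67), Zfp871 (−1.20), Arfgef3 (−0.86), Xkr4 (−1.72), Trpc5 (−2.77) and Zfhx3 (−0.63). All these values are as counted, while the trend on length ran in opposite directions in the 2 tissues. Its part in these differences was not tested gene by gene. Epcam, Pitx1, Gh and Prl rest on low counts in hypothalamus, and Glra1 averaged 0.93 CPM in WT pituitary.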

How the results depend on the processing

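The number of genes that passed in 200M against WT was 1 by edgeR, 618 with DESeq2, 1079 without a filter on low counts, 2 with the length trend removed and 0 with all 11 libraries in 1 fit. It was 1 with upper-quartile scaling and with length and GC trends removed, and 1 to 265 when each library was left out. The DESeq2 count was 125 with the length trend removed and 107 to 934 when each library was left out. For 200H against WT it was 5 with DESeq2, 97 without a filter and 0 to 1 when each library was left out, and for 200M against 200H 667 with DESeq2 and 1325 without a filter. In young hypothalamus the count was 0 with DESeq2, 30 without a filter and 0 to 10 when each library was left out. The cause was not tested in any of these. Between hypothalamus and pituitary it stayed within 1.5 times of 3000 under every alternative run.

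Same-numbered WT and 200M libraries did not deviate together (0.14, −0.08 and −0.04). For WT and 200H the values were 0.41, −0.08, 0.08 and 0.08, and for 200H and 200M 0.10, 0.17 and −0.06. Pairing in young hypothalamus and in pituitary was not examined. The replicate block is given for completeness. With it 2 genes passed in 200M against WT, 0 with the length trend removed as well, 0 in 200H against WT, 1 in 200M against 200H, 11 in the young and 2674 between tissues. With the block Pmch was at −0.02. With the block and the length trend removed Esr1 was at 0.05, Avp at −0.03, Oxt at −0.09, Crh at −0.03, Pmch at −0.22 and Meg3 at 0.05, each with the sign turned, and Gh had an edgeR adjusted p of 0.0879.

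Removing the length trend also turned the sign of Zeb2 (0.04), Cga (−0.03), Avp (−0.14), Oxt (−0.14), Pmch (−0.12) and Meg3 (0.01). With the GC trend removed as well Zeb2 was at 0.06, Cga at −0.02, Avp at −0.04, Oxt at −0.11 and Pmch at −0.10. None of these genes passed the test. Leaving out single libraries gave log2 fold changes of −0.44 to 0.85 for Epcam, −0.53 to 1.49 for Cga, −0.04 to 0.41 for Tshb, −0.14 to 0.20 for Avp, −0.11 to 0.16 for Oxt, −0.03 to 0.24 for Pmch, −0.16 to 2.34 for Adora2a and −0.49 to 2.86 for Slc17a7. Of the library measures, 200M minus WT, the GC slope ran from −0.000279 to 0.0105, genes detected from −49.3 to 362, and the summed CPM from −7.84 to 177 for neurons, −17.3 to 20.1 for tanycytes, −21.7 to 41.4 for endothelium and −18.7 to 125 for cortex and striatum. Low depth limits Gnrh1, Gh, Prl, Epcam, Esrp1 and the miR-200 host transcripts, which rest on low counts in at least 1 genotype.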
